A study of Sus scrofa with 21 samples.

Results

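Embigin (EMB), basigin (BSG), neuroplastin (NPTN) and the monocarboxylate transporters SLC16A1, SLC16A3 and SLC16A7 were examined in testis RNA of boars. These 6 genes were chosen by symbol, and 5 of them were matched to a row among the 25880 genes of the count files. EMB entered because it was high in the Landrace boars with a high change of sperm hyperactivity over storage, so its values in that comparison describe the choice and were not tested. BSG was not in the table that paired gene IDs with symbols, and its row was found only in a list of genes that the study called between high and low Landrace boars at day 0. Its values in that comparison were therefore also given without a test. No gene ID was matched to SLC16A1, which was not analysed here.

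Embigin, basigin and neuroplastin are related membrane proteins of the immunoglobulin superfamily that escort monocarboxylate transporters to the cell surface and stay bound to them there. Basigin is best known as the partner of the transporters encoded by SLC16A1 and SLC16A3, whereas embigin and neuroplastin can partner the transporter encoded by SLC16A7, which carries lactate, pyruvate and ketone bodies. In the testis, Sertoli cells pass lactate to the developing germ cells, and basigin is known to be required for male fertility in mice.

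Hyperactivity is the vigorous, asymmetric beating of the sperm tail that precedes fertilization. The libraries came from the testes of 13 Landrace and 8 Duroc boars, purebred animals in use for artificial insemination whose testes were frozen after slaughter, with 1 library per boar. Of the Landrace boars, 4 had low (L1 to L4) and 4 had high (L5 to L8) hyperactivity in fresh semen at day 0, the groups of contrast (i). Contrast (iii) set 4 boars whose hyperactivity changed little (L2, L9, L10 and L12) against 3 in which it changed strongly (L7, L13 and L15) when semen was kept for 96 h at 18 °C, and these are called the low change and high change boars. L2 and L7 thus belonged to both contrasts. The Duroc boars were labelled high (D1 to D5) or low (D6, D7 and D9) at day 0. For 7 of the 8 Duroc boars the deposited label and the study's own table gave opposite groups, and the labels were used. The labels name no treatment, and the ages of single boars were not given in the sources used here. Each library was the whole tissue of 1 animal, so a smaller number of cells of a type and less RNA per cell could not be told apart.

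The libraries held 41358671 to 125576407 counts in genes. Levels are given as CPM, the counts of a gene scaled to a common library size and normalized over all 21 libraries, and were compared only within a gene because no transcript length was used. EMB is annotated on chromosome 16 at 30121072 to 30170495 of Sscrofa11.1, BSG on chromosome 2 at 77735586 to 77743451 and NPTN on chromosome 7 at 59768414 to 59840594. SLC16A7 lies on chromosome 5 at 24713009 to 24871891, and SLC16A3 on chromosome 12 at 796882 to 807480. These are whole gene spans, with exons and introns.

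EMB (ENSSSCG00000029484) was detected in all 21 boars, from 5.32 CPM in L1 to 26.9 CPM in L13, which corresponded to 295 and 2275 counts. The order of the boars was led by L13 and L15, both of the high change group, followed by L8 at 17.5 CPM and D2 at 16.5 CPM. By group, the mean was 20.3 ± 7.0 CPM (SD, n = 3) in the high change boars and 12.7 ± 3.65 (n = 4) in the high day 0 boars. It was 10.2 ± 3.23 (n = 3) in the Duroc boars labelled low and 9.79 ± 4.38 (n = 5) in those labelled high. The lowest means were 8.19 ± 2.69 (n = 4) in the low day 0 boars and 7.84 ± 1.35 (n = 4) in the low change boars. From the high day 0 boars downward, each neighbouring pair of means differed by less than the larger of their SDs. The high change mean stood above the next one by more than its SD, but the values of these groups overlapped and L7 was in both.

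**Figure D1:**
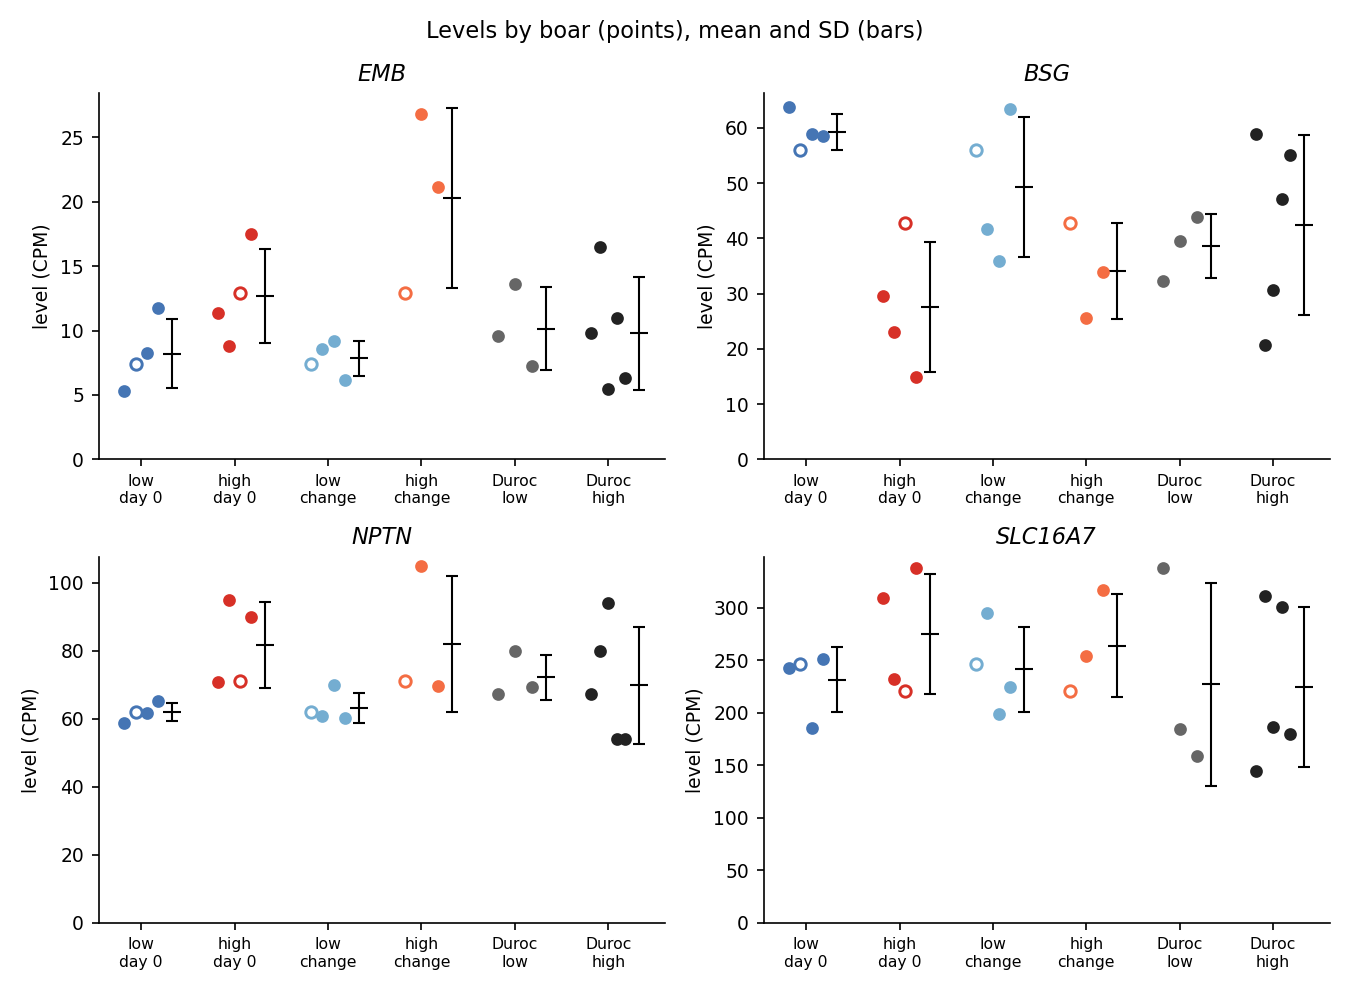
Levels of EMB, BSG, NPTN and SLC16A7 in CPM (vertical axis, from 0) by group (horizontal axis), with 1 point per boar and the mean ± SD as bars. Open points are L2 and L7, which are drawn in both Landrace contrasts. EMB reached 26.9 and 21.2 CPM in L13 and L15, and BSG was between 55.9 and 63.8 CPM in the 4 low day 0 boars.

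In contrast (iii), the comparison that chose EMB, its level was 7.40 CPM in L2, 8.57 in L9, 9.22 in L10 and 6.15 in L12 among the low change boars. In the high change boars it was 12.9 CPM in L7, 26.9 in L13 and 21.2 in L15. The groups did not overlap, with 12.9 CPM the lowest value of the high change boars and 9.22 CPM the highest of the low change boars. On the log2 scale the high change boars were 1.36 (SE 0.26) above the low change boars, or 2.57-fold. This value was 1.12 without L13, 1.61 without L7, and 1.58 (SE 0.27) without L2 and L7, the boars shared with contrast (i). Over all 12824 genes tested in this contrast, 16.4% did not overlap between the groups, and 0% passed an adjusted p of 0.05 by edgeR's quasi-likelihood test. At an unadjusted p of 0.05, 2540 genes passed, and after adjustment 64 were called by edgeR's likelihood ratio test and 116 by DESeq2.

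L13, the boar with the highest EMB level, also differed in markers of cell types. Its summed level of the 8 matched Sertoli cell markers of 9 listed was 515 CPM, against 193 to 271 CPM in the other 12 Landrace boars. AMH, a Sertoli cell marker of immature testis, had 0 counts in all 21 libraries. The summed level of the 7 matched elongating spermatid markers of 8 listed was 6185 CPM in L13 and 7603 CPM in L15, against 11835 CPM in L7 and 10276 to 14222 CPM in the low change boars. The 6 listed macrophage and lymphocyte markers, all matched, summed to 22.4 CPM in L13 and 6.04 to 15.1 CPM in the other Landrace boars. The 4 matched endothelial markers of 5 summed to 37.5 to 46 CPM in the high change and 23.4 to 39.4 CPM in the low change boars, with L13 the highest. All 3 tested immune markers and all 4 endothelial markers had log2 fold changes above 0 in contrast (iii), and 0 of them was called. So did all 7 tested Sertoli cell markers and all 6 Leydig cell markers, whereas all 7 elongating spermatid markers lay below 0. Of these lists too, 0 markers were called. The part of these cell types in the EMB difference was not tested.

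In contrast (i), which asks about hyperactivity in fresh semen, EMB was 5.32, 7.40, 8.26 and 11.8 CPM in the low boars L1 to L4. It was 11.4, 8.82, 12.9 and 17.5 CPM in the high boars L5 to L8. The groups overlapped, because L4 was above both L5 and L6. The log2 fold change was 0.55 (SE 0.27, approximate 95% interval 0.02 to 1.08) and did not pass the test (edgeR quasi-likelihood, adjusted p = 0.139). A two-sided exact permutation test of log2 CPM gave p = 0.0857. Both tests include L2 and L7, which were among the boars by which EMB was chosen, so they are not free of that choice. Without L2 and L7 the log2 fold change was 0.45 (SE 0.34, adjusted p = 0.338 by edgeR), and the exact permutation p was 0.3, where 3 against 3 boars cannot go below 0.1.

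BSG (ENSSSCG00000027907) was lower in the high day 0 boars. The low boars L1 to L4 held 63.8, 55.9, 58.9 and 58.6 CPM, and the high boars L5 to L8 held 29.5, 23.1, 42.8 and 14.9 CPM. No value of the groups overlapped, and the high boars were more spread (27.6 ± 11.8 against 59.3 ± 3.26 CPM, SD, n = 4 each). This gave a log2 fold change of -1.17 (SE 0.26), and -1.54 (SE 0.24) without L2 and L7. These values describe how the row was found and carry no test. Of the 12979 genes tested in contrast (i), 20.7% were called at an adjusted p of 0.05, with 4.82% higher and 15.8% lower in the high boars, and 31.4% did not overlap between the groups.

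For contrast (iii), BSG was 55.9 CPM in L2, 41.7 in L9, 35.9 in L10 and 63.5 in L12, against 42.8 in L7, 25.6 in L13 and 34.0 in L15. L7 lay above L9 and L10, so the groups overlapped. A log2 fold change of -0.54 (SE 0.24) is given without a test because the members were chosen with this contrast in view. Without L13 it was -0.37. Since both contrasts contain L2 and L7, their values are not independent of each other.

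NPTN (ENSSSCG00000001918), which also binds plasma membrane calcium pumps, separated the high from the low day 0 boars, but by a difference that did not pass the test. It was 58.9, 61.9, 61.7 and 65.3 CPM in L1 to L4 and 70.9, 95.1, 71.0 and 89.9 CPM in L5 to L8. The highest low boar was at 65.3 CPM and the lowest high boar at 70.9 CPM. The log2 fold change of 0.32 (SE 0.13, approximate 95% interval 0.07 to 0.58) had an adjusted p of 0.0857 (edgeR quasi-likelihood, unadjusted p = 0.0287). The exact permutation p was 0.0286, the smallest that 4 against 4 boars can give. That value follows from the separation itself, which 31.4% of the 12979 genes tested in contrast (i) also showed. Without L5 the adjusted p by edgeR was 0.0465, and without L2 and L7 it was 0.176 with a log2 fold change of 0.34 (SE 0.18).

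In the boars of contrast (iii), NPTN was 61.9, 60.8, 69.9 and 60.2 CPM in the low change boars L2, L9, L10 and L12 and 71.0, 105 and 69.8 CPM in the high change boars L7, L13 and L15. The groups overlapped by a narrow margin, with L15 just below L10. Their log2 fold change of 0.36 (SE 0.17) is given without a test, and it was 0.15 (SE 0.12) without L13.

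SLC16A7 (ENSSSCG00000000456), the lactate and pyruvate transporter that embigin and neuroplastin can partner, overlapped between the groups in every comparison. At day 0 it was 243, 247, 185 and 251 CPM in L1 to L4 and 309, 232, 221 and 338 CPM in L5 to L8. The log2 fold change was 0.18 (SE 0.16, approximate 95% interval -0.13 to 0.49, adjusted p = 0.403 by edgeR, exact permutation p = 0.286), and 0.05 without L3. In contrast (iii) it was 247, 295, 198 and 225 CPM in the low change boars and 221, 254 and 317 CPM in the high change boars, with a log2 fold change of 0.12 (SE 0.17), which turned to -0.04 without L15. Of the 3 members tested in contrast (i), which were EMB, NPTN and SLC16A7, 0 passed an adjusted p of 0.05 with edgeR's quasi-likelihood test, its likelihood ratio test or DESeq2. At an unadjusted p of 0.05 by the quasi-likelihood test 1 of the 3 passed, NPTN, as did 5415 of all 12979 genes.

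SLC16A3 (ENSSSCG00000024018), which encodes a transporter typical of glycolytic cells that export lactate, was hardly detected. Its counts ran from 0 to 5 per library, with 0 counts in 8 of the 21 libraries and 5 in D4 and D5. A count of 3 corresponded to between 0.0244 and 0.0616 CPM at the depth of these libraries. The gene was below the filter on low counts in every comparison, and no difference between groups was detectable at this depth.

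**Figure D2:**
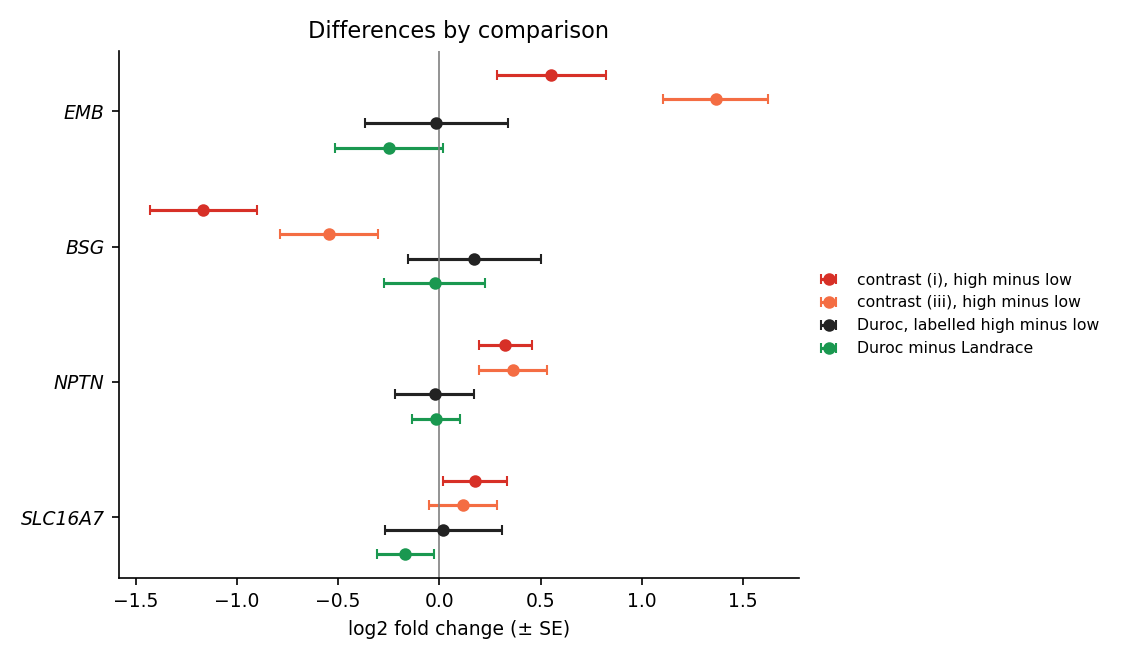
Log2 fold changes (horizontal axis, points ± SE) of the 4 genes above the count filter (vertical axis) in contrast (i), contrast (iii), the Duroc boars by their labels, and between the breeds. BSG lay at -1.17 and -0.54 in the Landrace contrasts, EMB at 0.55 and 1.36, and the Duroc and breed values of each gene lay between -0.25 and 0.17.

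In the Duroc boars, the 4 tested genes showed no difference between the labelled groups beyond the spread of the boars. EMB was 9.78, 16.5, 5.46, 11.0 and 6.28 CPM in D1 to D5, labelled high, and 9.60, 13.6 and 7.22 CPM in D6, D7 and D9, labelled low. The boars labelled high spanned the whole range of those labelled low. Its log2 fold change was -0.02 (SE 0.35, approximate 95% interval -0.71 to 0.68, exact permutation p = 0.821).

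BSG was 58.8, 20.7, 30.6, 47.2 and 55.1 CPM in D1 to D5 and 32.3, 39.5 and 43.8 CPM in D6, D7 and D9. The lowest and the highest boars were thus both labelled high. The log2 fold change was 0.17 (SE 0.33, approximate 95% interval -0.47 to 0.81, exact permutation p = 0.893). NPTN differed by -0.02 (SE 0.20, interval -0.41 to 0.36) and SLC16A7 by 0.02 (SE 0.29, interval -0.54 to 0.58) on the log2 scale, with exact permutation p of 0.679 and 0.964. NPTN ranged from 54.0 to 93.9 CPM in the boars labelled high and from 67.4 to 79.8 CPM in those labelled low, and SLC16A7 from 144 to 311 and from 159 to 338 CPM.

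Adjusted p was 1 for each of the 4 genes by edgeR's quasi-likelihood test. Of all 13043 genes tested in Duroc, 0% were called, with 158 at an unadjusted p of 0.05 and 0 called by the likelihood ratio test or DESeq2. The Duroc interval for EMB, -0.71 to 0.68, included its value of 0.55 in contrast (i). Because the study's table put 7 of these 8 boars in the opposite group, the direction, size, SE and p of each Duroc value rest on the labels. D5 alone was high in both, so the study's table would regroup the boars and not only turn the signs. The same holds for the comparison of Duroc with Landrace at day 0 that follows.

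The test of whether the high minus low difference was the same in Duroc as in Landrace at day 0 called 0% of 12920 genes, with 1946 at an unadjusted p of 0.05, 3 by the likelihood ratio test and 6 by DESeq2. The difference of the differences was -0.38 (SE 0.23, adjusted p = 0.373) for NPTN and -0.19 (SE 0.35, adjusted p = 0.76) for SLC16A7 on the log2 scale, by edgeR. For EMB it was -0.61 (SE 0.47), given without a test because L2 and L7 were among the boars by which EMB was chosen. For BSG it was 1.32 (SE 0.47), given without a test because the Landrace side of it served to find the row.

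Between the breeds, the levels of all 4 genes overlapped widely. EMB had a median of 9.22 CPM in the 13 Landrace boars (5.32 to 26.9) and 9.69 CPM in the 8 Duroc boars (5.46 to 16.5). The medians lay closer together than the means, 11.95 ± 6.32 and 9.93 ± 3.74 CPM (SD), since L13 and L15 raised the Landrace mean. The log2 fold change of Duroc over Landrace was -0.25 (SE 0.27). It was -0.09 without L13 and -0.05 with the day 0 Landrace boars alone and hyperactivity level as a covariate. No test is given, because the boars by which EMB was chosen are among the Landrace boars.

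BSG had a median of 41.7 CPM in Landrace (14.9 to 63.8) and 41.7 CPM in Duroc (20.7 to 58.8). Its log2 fold change was -0.02 (SE 0.25, interval -0.51 to 0.47). NPTN differed by -0.02 (SE 0.12, interval -0.25 to 0.21) and SLC16A7 by -0.17 (SE 0.14, interval -0.45 to 0.11). The adjusted p by edgeR was 0.999 for NPTN and 0.846 for SLC16A7. Neither NPTN nor SLC16A7 was called, at an adjusted or an unadjusted p of 0.05, against 2.77% of the 12835 genes tested between the breeds after adjustment. For BSG no test is given, because the day 0 boars by which its row was found are among the Landrace boars. The sign for BSG turned to 0.12 with the day 0 Landrace boars alone and hyperactivity level as a covariate.

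Counts of one gene per 100 of another within a library need no normalization between libraries. For 100 NPTN counts there were 13.1 ± 3.75 EMB counts in the low day 0 boars and 15.8 ± 4.54 in the high day 0 boars (SD, n = 4 each), and the groups overlapped (exact permutation p = 0.4). This test includes L2 and L7, which were among the boars by which EMB was chosen, so it is not free of that choice. Against BSG the ratio was further apart, from 8.34 to 20.1 EMB counts per 100 BSG counts in L1 to L4 and from 30.2 to 117 in L5 to L8. The high change boars held 62.3 in L15, 105 in L13 and 30.2 in L7, and the low change boars between 9.69 and 25.7. D2 was the Duroc boar with the highest ratio, at 79.7, and the other 7 held 11.4 to 34.5. These ratios to BSG were not tested in Landrace, since both genes were selected there.

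Across boars, BSG and NPTN ran in opposite directions. In the 13 Landrace boars Pearson's r of their log2 CPM was -0.849 and Spearman's rho -0.863, and r was -0.798 without L8 and L6. For EMB the Landrace r was -0.65 with BSG (rho -0.703) and 0.694 with NPTN (rho 0.78), and without L13 and L15 these were -0.696 and 0.626. The Landrace values include the boars by which EMB and BSG were selected, and are given as a description. In the 8 Duroc boars, which played no part in that choice, BSG and NPTN had r = -0.65 (exact permutation p = 0.0801, adjusted 0.192 over 12 relations) and rho = -0.833 (exact permutation p = 0.0154, adjusted 0.0461). The 12 relations adjusted together included those of the Landrace boars. The adjusted Duroc values thus rest in part on the selected boars, and no call was drawn from them. Without D2 and D1 the Duroc r was -0.804. EMB and NPTN had r = 0.054 and rho = 0.095 in Duroc (exact permutation p = 0.891 and 0.84, adjusted 0.891 and 0.84), and EMB and BSG had r = -0.38 and rho = -0.167 (exact permutation p = 0.356 and 0.703, adjusted 0.475 and 0.767). All genes of a library share its depth and its mix of cells.

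**Figure D3:**
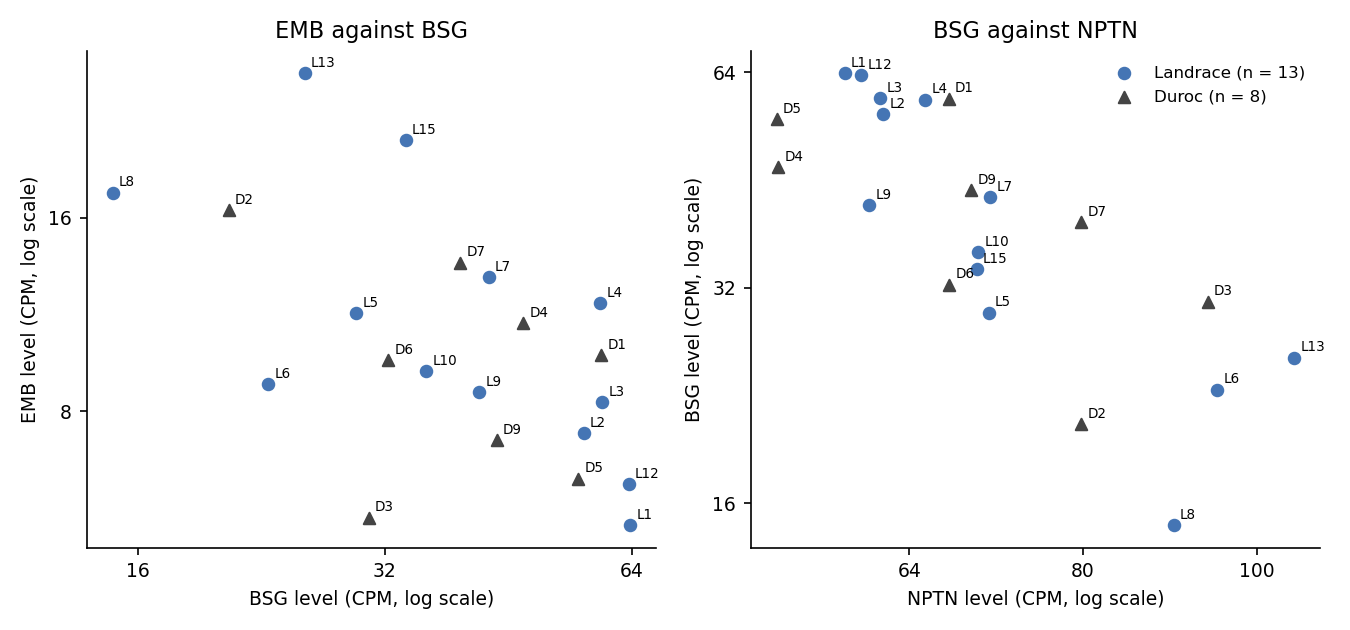
EMB against BSG (left) and BSG against NPTN (right), both axes in CPM on a log scale, with 1 point per boar (circles Landrace, triangles Duroc). L13 and L15 lie highest for EMB, and Landrace boars with more NPTN held less BSG (r = -0.849 on log2 CPM).

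The genes whose log2 CPM followed each member most closely over the 21 boars, after centring within each breed, are given by Pearson's r. For BSG these included DDOST, a subunit of the oligosaccharyltransferase (r = 0.98), and TEX264, a receptor in the autophagy of the endoplasmic reticulum (0.98). For NPTN they were TRPM7, an ion channel with a kinase domain (0.961), TIAL1, an RNA-binding protein (0.951), and ALG13, which acts in N-glycosylation (0.942). SLC16A7 was followed by the RNA helicase DDX47 (0.919), the unnamed gene ENSSSCG00000015293 (0.902) and TMEM184C (0.898).

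EMB had looser companions, with CHTOP, a factor of mRNA export, at r = 0.789, WDR17 at 0.78 and TNFSF13B, a B cell cytokine, at 0.774. Of the 12834 other genes, 643 (5.01%) had an r above 0.9 with BSG, 55 with NPTN, 2 with SLC16A7 and 0 with EMB. An r below -0.9 was found for 22 genes with BSG and 116 with NPTN. These values are a description over boars that share groups and cell mix.

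The other listed genes numbered 42 and covered monocarboxylate transport, lactate dehydrogenases, the use of pyruvate in mitochondria, glucose transporters, and ligands or calcium pumps that bind basigin or neuroplastin. Of these, 36 were matched and 24 passed the filter in contrast (i). Of these 24, 4 were higher and 3 lower in the high day 0 boars, beside the 4.82% and 15.8% of all genes given above. Their median log2 fold change was 0.19, against 0.03 over all genes tested, with 17 of the 24 above 0. At an unadjusted p of 0.05 by the quasi-likelihood test, 7 of the 24 passed, a smaller share than the 5415 of all 12979 genes.

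All 4 genes that rose belonged to the pyruvate dehydrogenase complex and its regulators, a list of 11 tested genes of which 10 had a log2 fold change above 0. PDK4, a kinase that switches the complex off, was 18.3, 16.1, 19.4 and 26.2 CPM in L1 to L4 and 24.7, 56.2, 44.2 and 41.2 CPM in L5 to L8. L5 lay below L4, so its groups overlapped, and its log2 fold change was 0.98 (SE 0.24, adjusted p = 0.0225 by edgeR). DLD, the dihydrolipoamide dehydrogenase of the complex, rose by 0.71 (SE 0.20, adjusted p = 0.0327), the kinase gene PDK1 by 0.56 (SE 0.16, adjusted p = 0.0308) and PDHA1, the catalytic alpha subunit, by 0.49 (SE 0.14, adjusted p = 0.0352). PDK1 ran from 37.6 to 51.2 CPM in the low boars and from 57.7 to 87.2 CPM in the high boars.

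The 3 genes that fell were no larger a share of the 24 than the 15.8% called lower among all genes. SLC2A8, a glucose transporter, was 7.05, 5.97, 6.69 and 6.57 CPM in L1 to L4 and 3.32, 2.12, 4.47 and 1.87 CPM in L5 to L8, and the groups did not overlap. Its log2 fold change was -1.22 (SE 0.29, adjusted p = 0.0224 by edgeR). MPC1L, a testis form of the mitochondrial pyruvate carrier, was 2.38 to 4.29 CPM in the low and 0.669 to 1.64 CPM in the high boars, with -1.42 (SE 0.36, adjusted p = 0.0248). SLC16A5, another member of the monocarboxylate transporter family, was 2.91 to 11.3 and 1.47 to 3.23 CPM, with -1.39 (SE 0.40, adjusted p = 0.0343).

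LDHA, the lactate dehydrogenase of most glycolytic cells, was 480 ± 69.1 CPM in the low and 578 ± 51.7 CPM in the high boars, with a log2 fold change of 0.20 (SE 0.13, adjusted p = 0.266 by edgeR). LDHC, the form of spermatocytes, spermatids and sperm, was 715 ± 194 and 899 ± 258 CPM, with 0.26 (SE 0.22, adjusted p = 0.386). LDHB and LDHD stayed below the filter, as did SLC5A8 and SLC5A12, the sodium-coupled carriers of monocarboxylates. SLC16A8 had at most 1 count in any library. Among the basigin ligands and calcium pumps, 3 genes were tested and 0 called, with log2 fold changes of -0.41 for PPIB, 0.29 for ATP2B1 and -0.06 for ATP2B4.

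**Figure D4:**
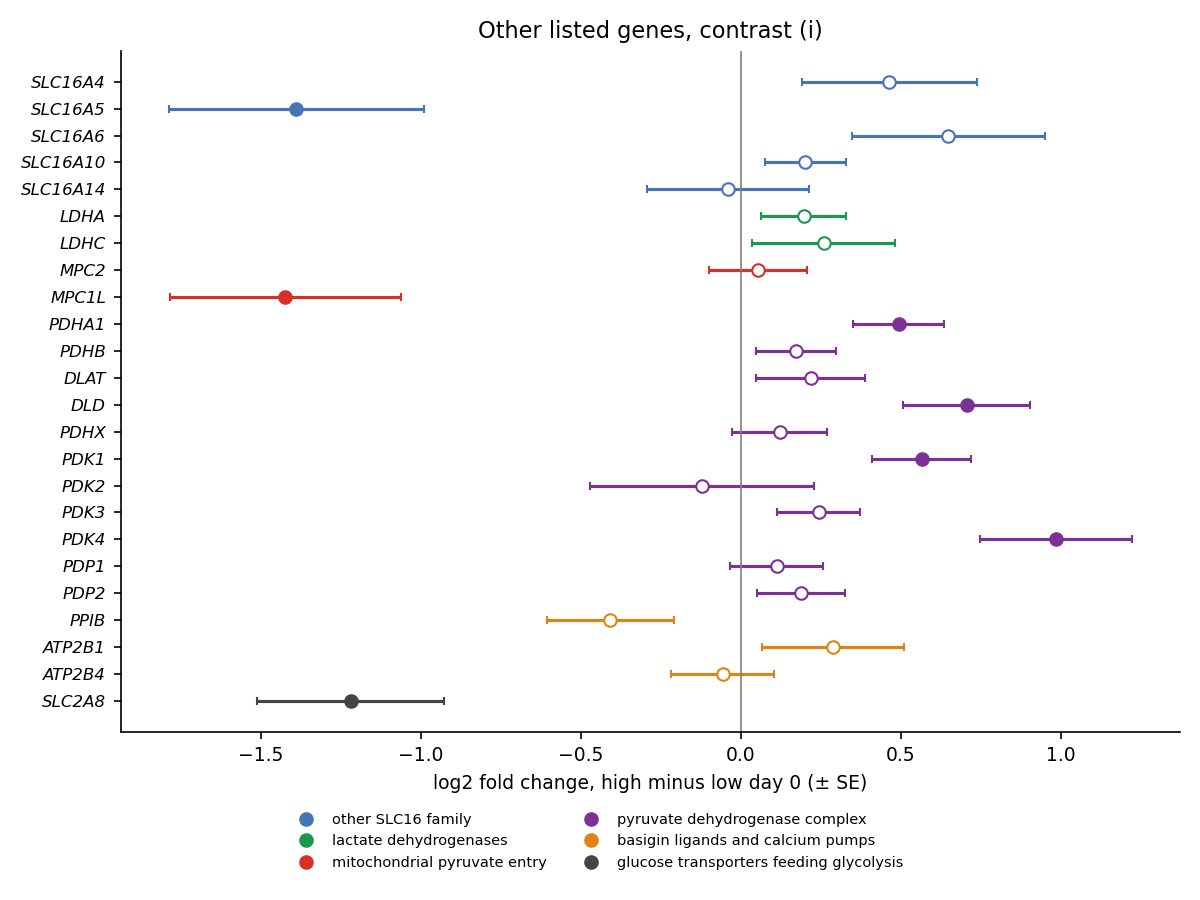
Log2 fold changes in contrast (i), high minus low day 0 boars (horizontal axis, points ± SE), of the 24 tested genes of the listed groups (vertical axis), coloured by list. Filled points passed an adjusted p of 0.05, and PDK4 at 0.98 and MPC1L at -1.42 lie farthest out.

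These calls depended on single boars. Without L3 or without L6, 0 of the genes were called in either direction, and contrast (i) as a whole then held 1 called gene in place of 2682. Without L1 the counts were 1 higher and 0 lower, without L4 1 and 3, without L8 1 and 2, without L2 2 and 3, and without L7 2 and 4. Called genes over the whole contrast numbered 966 without L1, 1481 without L4 and 1228 without L8. Without L2 and L7 together, 1 gene was called higher and 4 lower. In contrast (iii), in Duroc and between the breeds, 0 of the 25 tested genes were called in each. At an unadjusted p of 0.05 these numbered 5, 0 and 3, beside 2540 of 12824, 158 of 13043 and 1564 of 12835 of all genes, so that the shares in contrast (iii) and between the breeds were near those of all genes.

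Markers of germ cells differed alongside in contrast (i). The 7 matched spermatocyte markers of 8 listed summed to 1193 to 1588 CPM in the low boars and 1660 to 2530 CPM in the high boars, without overlap, although 0 of the 7 was called. Of the elongating spermatid list, PRM1, TNP2 and TSSK6 were called lower in the high boars, 3 of 7, with log2 fold changes of -0.70, -0.73 and -1.41, while TNP1 (0.21), ODF1 (0.07) and AKAP4 (0.31) had values above 0 and did not pass. The round spermatid list had ACR and SPACA3 called lower, 2 of 6, with ACRV1 (0.46) and SPACA1 (0.39) above 0 and not called. In the peritubular list MYH11 and DES were called lower, 2 of 4, and the 1 tested erythroid marker was called lower (log2 fold change -2.53). These counts stand beside the 15.8% of all genes called lower. All 4 endothelial markers had log2 fold changes below 0 and all 6 Leydig cell markers above 0, and 0 of these was called. The summed peritubular level was 47.9 to 103 CPM in the low and 17.6 to 63.0 CPM in the high boars. The summed elongating spermatid level overlapped, at 8701 to 13299 and 11195 to 14951 CPM. The Sertoli sums overlapped too, at 193 to 240 and 198 to 271 CPM. The part of cell types in the differences of EMB, BSG, NPTN and the other listed genes was not tested.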

How the data were processed

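Testis RNA of 21 boars was sequenced by the authors as stranded single reads, which were trimmed with Trimmomatic 0.36, aligned to Sscrofa 11.1 with STAR and counted per Ensembl gene with HTSeq. The deposited values are raw counts, 1 file per boar. Rows naming no gene were left out, among them reads in no feature (21.5% to 30.2% of all reads listed in a file), ambiguous reads (0.698% to 0.837%) and reads not aligned uniquely (5.83% to 8.28%).

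Counts were tested with edgeR 4.0.16 in R 4.3.3 (TMM, quasi-likelihood test, Benjamini-Hochberg over all genes tested), after dropping genes that reached 1 CPM in under 50% of the fitted libraries. The study states a likelihood ratio test with edgeR 3.12.1. A likelihood ratio test in edgeR 4.0.16 was run as an alternative, as was DESeq2 1.42.0. Intervals are the log2 fold change ± the normal quantile times its SE. Log2 CPM used a prior count of 2. Permutation tests were two-sided, exact or with 100000 resamples between breeds, in Python 3.11.15 with scipy 1.17.1, and 15 were run in all. The 34 pairs of libraries within groups had correlations of 0.956 to 0.982 and differed by more than sampling noise. The fits were tested on simulated counts.

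Members and lists were chosen with earlier results of these data known. Named genes were the members, pathway genes that passed the test or were near 0, and the 3 genes most like each member, of which 1 is not reported here. LDHA, LDHC, PPIB, ATP2B1, ATP2B4 and the cell type markers named lie outside this rule and were chosen after their values were seen. Pathway and marker genes were matched by the supplied table of gene IDs, and BSG only through a supplementary list of the study. Coordinates came from RefSeq. No sequence is shown because none was supplied. P-values measure the spread between boars.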

Additional observations from a re-analysis of the deposited data

Results flagged for a closer look

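SLC16A7 in L3 was 185 CPM, against 243 to 251 CPM in the other 3 low day 0 boars, a gap that exceeded Dixon's 95% limit. Of 16 groups of values examined, 1 was singled out in this way, where chance gives about 0.8.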

How the results depend on the processing

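No paired analysis was possible because the labels give no replicate number that pairs boars across the groups compared, and no boar was on both sides of a comparison. In the Duroc boars the log2 fold change of SLC16A7 turned to -0.0154 with DESeq2, -0.0154 with RLE size factors and -0.0264 without a filter. Between the breeds BSG turned to 0.12 with the day 0 boars and level as a covariate and to 0.0167 with 1 term for each label group, and NPTN to 0.0106 with the latter. Pathway genes called higher in contrast (i) numbered 1 without L2 and L7. Called genes numbered 64 (likelihood ratio test), 116 (DESeq2), 1 (no filter) and 1 (filterByExpr) in place of 0 in contrast (iii), 537 (DESeq2), 554 (no filter) and 230 (level as a covariate) in place of 355 between breeds, and 3 and 6 in place of 0 for the difference between breeds. The cause of these changes was not tested.

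Leaving out each boar in turn, the members called in contrast (i) ranged from 0 to 1, its pathway genes from 0 to 4 higher and from 0 to 4 lower, and all genes from 1 to 3764. Duroc log2 fold changes ranged from -0.0262 to 0.35 (BSG), -0.27 to 0.24 (EMB), -0.18 to 0.0561 (NPTN) and -0.15 to 0.38 (SLC16A7). Breed values ranged from -0.39 to -0.09 (EMB), -0.13 to 0.0799 (BSG), -0.072 to 0.0457 (NPTN) and -0.26 to -0.10 (SLC16A7). The difference of the differences ranged from -0.81 to -0.28 (EMB), 1.16 to 1.68 (BSG), -0.45 to -0.24 (NPTN) and -0.37 to 0.18 (SLC16A7). Called genes ranged from 0 to 2 in Duroc, 0 to 2 in contrast (iii), 258 to 473 between breeds and 0 to 1 for the difference between breeds.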
